A study of Mus musculus with 8 samples.

Results

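The enzymes that build cholesterol and fatty acids, with the proteins that control them, were followed through the loss of nucleostemin (NS) in mouse embryonic stem cells (ESCs). The set lists 32 genes, chosen by their known roles at a time when earlier results of these data were known. A gene was measured where it had a probe set of its own symbol, and of several the probe set with the brightest average signal was taken. This gave 31 of the 32 genes (Acat2 is the exception), among 18194 genes on the array. The cholesterol branch holds 17 measured genes, 6 of the mevalonate steps and 11 of the steps after farnesyl diphosphate. The fatty acid branch holds 8, and 6 genes act in control and sterol transport.

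The cells were NS tet-off ESCs, a male 129sv line in which both alleles of the NS gene (Gnl3) are disrupted and an NS cDNA in the ROSA26 locus is kept on until doxycycline (Dox) is added. All 8 arrays share this genotype. A Dox-treated array (6 days of Dox) and a Dox-untreated array were made from each of 4 backgrounds: cells with a stably integrated Nanog vector, cells with a stably integrated Esrrb vector, empty vector cells kept with inhibitors of MEK and GSK3b (2i), and empty vector cells. Cells were grown without feeders, with LIF and serum outside 2i, and the vectors were selected with puromycin. Whether a background is 1 clone or a pool is not given in the sources used here. Each condition has 1 array, so nothing was tested within a pair and a log2 ratio of 1 pair carries no error.

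Cells make cholesterol from acetyl-CoA through mevalonate, farnesyl diphosphate, squalene and lanosterol, and make fatty acids from the same acetyl-CoA through malonyl-CoA. Transcription of both branches is driven by the SREBP proteins, encoded by Srebf1 and Srebf2. Their precursors lie in the membrane of the endoplasmic reticulum, where Insig proteins hold them when sterols are plentiful and Scap carries them to the Golgi for cleavage when sterols are scarce. SREBP-2 acts mainly on the cholesterol branch and SREBP-1c mainly on the fatty acid branch.

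SREBP proteins bind sterol regulatory elements, often beside CCAAT boxes bound by NF-Y, so the letters TCACNCCAC, CCAAT and CACGTG were looked for on both strands of the RefSeq promoters (GRCm38.p6, from 250 bases before to 50 after a gene's start). Of the 31 measured genes, 24 had an entry. The element TCACNCCAC was found in 1 of the 33 promoters of the listed genes, that of Hmgcs1, and in 1.24% of the 32851 promoters of the genome. CCAAT was found in 21 of the 33, against 37.4% of all promoters, and more than 1 copy in 11 of the 33, against 11.7%. CACGTG was found in 6 of the 33, against 7.15%. These are matches of letters and not sites, and the reference genome is not of the 129sv strain. The 250 bases before the start are shown for Hmgcs1 (chr13:119690101-119690350, plus strand), the only gene with the element, for Idi1 (chr13:8885356-8885605, plus strand) and Srebf2 (chr15:82147019-82147268, plus strand), which rose after Dox, and for Mvk (chr5:114444019-114444268, plus strand) and Fasn (chr11:120824548-120824797, minus strand), which did not pass the test. Capitals mark TCACNCCAC and CCAAT, and a CCAAT on the other strand reads ATTGG.
Hmgcs1: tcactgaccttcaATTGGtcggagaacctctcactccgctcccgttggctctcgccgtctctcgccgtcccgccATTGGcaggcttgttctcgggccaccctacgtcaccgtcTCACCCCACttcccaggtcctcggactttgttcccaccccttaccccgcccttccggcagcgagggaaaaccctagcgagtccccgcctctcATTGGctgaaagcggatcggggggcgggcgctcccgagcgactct
Idi1: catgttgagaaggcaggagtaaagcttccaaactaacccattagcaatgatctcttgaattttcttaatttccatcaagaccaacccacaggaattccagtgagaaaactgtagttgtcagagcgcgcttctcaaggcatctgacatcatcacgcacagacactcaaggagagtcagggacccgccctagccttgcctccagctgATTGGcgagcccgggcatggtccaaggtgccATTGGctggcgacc
Srebf2: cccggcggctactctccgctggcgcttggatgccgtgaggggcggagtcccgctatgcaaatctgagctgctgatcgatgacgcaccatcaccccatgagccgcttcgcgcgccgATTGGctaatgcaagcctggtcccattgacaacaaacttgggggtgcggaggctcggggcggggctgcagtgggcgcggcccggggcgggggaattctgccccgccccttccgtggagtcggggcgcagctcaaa
Mvk: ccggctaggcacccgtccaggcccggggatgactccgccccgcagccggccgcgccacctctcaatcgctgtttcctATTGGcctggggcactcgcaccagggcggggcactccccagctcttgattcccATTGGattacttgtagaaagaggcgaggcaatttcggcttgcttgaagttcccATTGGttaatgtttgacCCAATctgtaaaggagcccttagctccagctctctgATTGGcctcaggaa
Fasn: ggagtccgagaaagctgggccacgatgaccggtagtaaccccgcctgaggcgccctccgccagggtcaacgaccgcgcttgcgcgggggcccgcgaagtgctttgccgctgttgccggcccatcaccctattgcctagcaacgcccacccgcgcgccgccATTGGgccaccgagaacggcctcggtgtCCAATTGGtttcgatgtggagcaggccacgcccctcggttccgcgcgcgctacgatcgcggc
The most copies of CCAAT among these, 5, lie before Mvk. The run CCAATTGG before Fasn was counted on each strand. By gene, CCAAT was found for 7 of the 8 risen genes with an entry and for 13 of the other 16.

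Signals are on a log2 scale and compare 1 gene between arrays, not different genes. Gnl3 itself had log2 signals of 9.13 (Nanog), 8.61 (Esrrb), 8.01 (2i) and 7.79 (empty vector) with Dox, against 13.68 (Nanog), 13.61 (Esrrb), 13.54 (2i) and 13.47 (empty vector) without Dox, a common log2 response of -5.19 (SE 0.19, adjusted p = 0.00278 by limma). Undifferentiated ESC markers had a mean log2 signal of 12.02 (Nanog), 12.21 (Esrrb), 11.87 (2i) and 10.97 (empty vector) with Dox, against 12.11 to 12.21 without Dox, and 6 of 12 were more than 2-fold lower with Dox in cells carrying the empty vector. Of 11 trophoblast and simple epithelium markers, 0 were more than 2-fold higher with Dox under forced Nanog or forced Esrrb, 7 in 2i and 8 with the empty vector. Their mean log2 signal was 6.53 (Nanog), 6.53 (Esrrb), 7.85 (2i) and 8.30 (empty vector) with Dox, against 6.07 to 6.46 without Dox. Primitive endoderm markers averaged 7.03 with Dox and 8.04 without Dox in Esrrb cells, against 5.55 to 5.96 on the other 6 arrays. Markers of hepatocytes and adipocytes, cells with high lipid synthesis, had a mean log2 signal of 4.49 (Nanog), 4.29 (Esrrb), 4.45 (2i) and 4.26 (empty vector) with Dox, against 4.20 to 4.41 without Dox. Dusp6, a feedback target of Erk, had a log2 signal of 7.63 with Dox and 10.95 without Dox in the 2i pair, and 10.97 in empty vector cells without Dox. Over all 6 Erk feedback genes the mean log2 signal was 8.27 with Dox and 10.51 without Dox in the 2i pair, and 10.28 in empty vector cells without Dox. Spry4 had 4.07 with Dox and 9.92 without Dox in 2i, and Etv4 6.10 with Dox and 8.91 without Dox. Egr1 had 9.80 with Dox and 10.73 without Dox in 2i, and 9.51 in empty vector cells without Dox. Etv5 went the other way in 2i, with 12.07 with Dox and 11.68 without Dox. Apart from Egr1, the 2i array without Dox thus stood near the empty vector array without Dox for these genes. How far the inhibitors enter the 2i ratios beside Dox was not tested.

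Across the 4 backgrounds, 10 of the 31 genes rose after Dox and 0 fell, with 0 lower at an unadjusted p under 0.05 (limma with the background as a block, 3 residual degrees of freedom, Benjamini-Hochberg over all genes at 0.05). That is 32.3% of the set, where 3.69% of all genes rose and 3.39% fell. All 31 had a mean log2 signal above the median of all genes (6.69), the lowest at 6.71. Shares of all genes, here and below, include dimmer genes and are not those of equally bright ones. With a filter on dim probe sets, 36.0% of genes had an unadjusted p under 0.05 by limma in either direction, against 27.4% without it. By adjusted p, more genes rose and more fell with that filter than without it, although fewer genes were tested. The shares of brighter genes that rose or fell were thus above 3.69% and 3.39%. The contrast with 32.3% is smaller against brighter genes than against all genes. Of the 17 cholesterol genes 6 rose (Hmgcs1, Mvd, Idi1, Fdps, Fdft1 and Dhcr7), of the 6 control and transport genes 3 rose (Srebf1, Srebf2 and Scap), and of the 8 fatty acid genes 1 rose (Acly). Their folds ran from 1.26 to 2.22. In 8 of the 31 the 4 Dox-treated signals all lay above the 4 Dox-untreated signals (8.79% of all genes). In 0 of the 31 they all lay below (8.96% of all genes). These 8 are the risen genes other than Mvd and Fdps, and they were called from the same signals. The calls rest on all 4 pairs. With the Nanog, Esrrb, 2i or empty vector pair left out, 0 of the 31 passed at 2 residual degrees of freedom. In those fits 1 to 26 genes of 18194 rose. All 10 were higher with Dox in each of the 4 pairs, so their coefficients had to stay above 0. Their unadjusted p by limma stayed under 0.05, as did that of 3942 to 4212 of all genes. The 10 were picked from the same pairs, so that p is no separate evidence. Without the 2i pair the log2 coefficients of the 10 were 0.36 to 1.05, against 0.34 to 1.15 with it. In bulk RNA, a change in the share of a cell type and a change of RNA per cell cannot be told apart, and the part of the marker shifts above in these results was not tested.

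**Figure D1:**
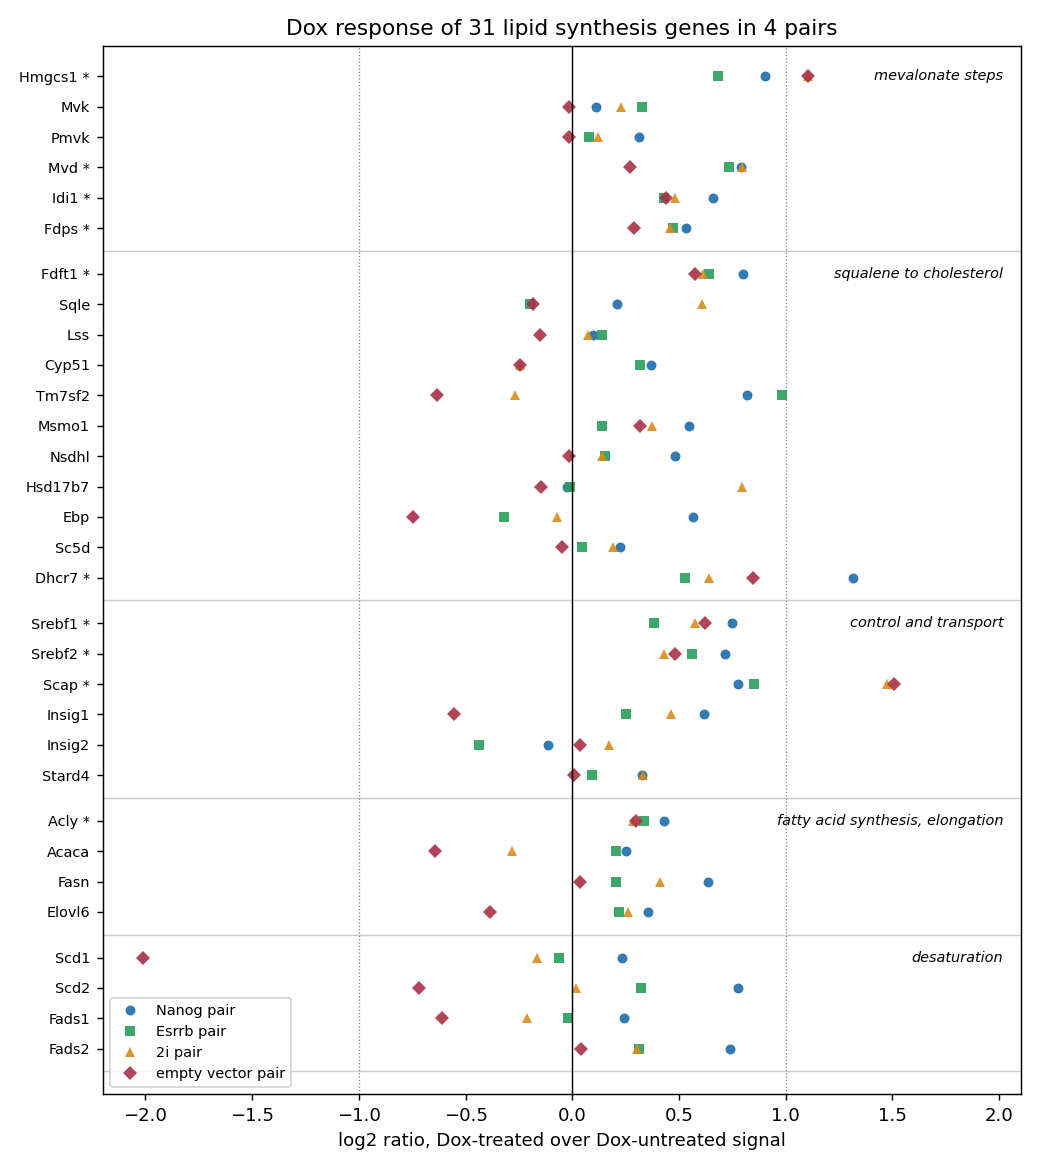
Log2 ratio of the signal with Dox over that without Dox (horizontal axis) for the 31 measured genes, with 1 symbol per pair, grouped by pathway step. Dotted lines stand at 2-fold, and a star marks the 10 genes that rose in the common fit. Scd1 in the empty vector pair lies farthest left, at -2.01.

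Hmgcs1 encodes the cytosolic HMG-CoA synthase that opens the mevalonate pathway, and had log2 signals of 11.59 (Nanog), 11.67 (Esrrb), 11.56 (2i) and 11.58 (empty vector) with Dox, against 10.69 (Nanog), 10.99 (Esrrb), 10.46 (2i) and 10.48 (empty vector) without Dox. The treated arrays all lay between 11.56 and 11.67, above every untreated one. The common log2 response by limma was 0.95 (SE 0.09, 1.93-fold, adjusted p = 0.0172). All 5 of its probe sets were higher in every pair, by 0.51 to 1.13.

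Mvd decarboxylates mevalonate diphosphate to isopentenyl diphosphate, and had log2 signals of 8.05 (Nanog), 7.79 (Esrrb), 7.69 (2i) and 7.03 (empty vector) with Dox, against 7.26 (Nanog), 7.05 (Esrrb), 6.90 (2i) and 6.75 (empty vector) without Dox. The treated empty vector array lay among the untreated ones, and its pair had the smallest ratio on this probe set. Its other probe set, at a mean log2 signal of 7.27 against 7.31, gave log2 ratios of 0.43 (Nanog), 0.20 (Esrrb), 0.19 (2i) and 0.30 (empty vector). The common log2 response by limma was 0.65 (SE 0.13, 1.57-fold, adjusted p = 0.0443), and without the background as a block the adjusted p was 0.108.

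Idi1 interconverts the isoprene units, with log2 signals of 10.00 (Nanog), 9.66 (Esrrb), 9.73 (2i) and 9.79 (empty vector) with Dox, against 9.34 (Nanog), 9.23 (Esrrb), 9.25 (2i) and 9.35 (empty vector) without Dox. The groups did not overlap, and Nanog cells with Dox stood highest. In limma's fit the log2 response was 0.50 (SE 0.09, 1.42-fold, adjusted p = 0.0336).

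Fdps joins isoprene units to farnesyl diphosphate, and had log2 signals of 9.99 (Nanog), 10.00 (Esrrb), 9.93 (2i) and 9.49 (empty vector) with Dox, against 9.46 (Nanog), 9.53 (Esrrb), 9.48 (2i) and 9.20 (empty vector) without Dox. As for Mvd, the treated empty vector array lay within the untreated range. The log2 response by limma was 0.44 (SE 0.08, 1.35-fold, adjusted p = 0.0413), with an adjusted p of 0.0889 without the block. Averaged over its 2 probe sets the response was 0.28 and did not pass, but the other probe set has a mean log2 signal of only 2.35.

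The mevalonate genes that did not pass were Mvk and Pmvk, the kinases of mevalonate and phosphomevalonate. Mvk had log2 ratios of 0.11 (Nanog), 0.33 (Esrrb), 0.23 (2i) and -0.01 (empty vector). Pmvk had log2 ratios of 0.31 (Nanog), 0.08 (Esrrb), 0.12 (2i) and -0.02 (empty vector). Both lay within 0.33 of 0 in every pair. The median log2 ratio of the 6 mevalonate genes was 0.60 (Nanog), 0.45 (Esrrb), 0.47 (2i) and 0.28 (empty vector).

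Fdft1, the squalene synthase that commits farnesyl diphosphate to sterols, had log2 signals of 10.84 (Nanog), 10.72 (Esrrb), 10.55 (2i) and 10.35 (empty vector) with Dox, against 10.04 (Nanog), 10.08 (Esrrb), 9.94 (2i) and 9.78 (empty vector) without Dox. Every treated array was above every untreated one, by similar amounts in the 4 pairs. The log2 response by limma was 0.66 (SE 0.08, 1.58-fold, adjusted p = 0.0208). Of its 4 probe sets the 2 dimmest, at mean log2 signals of 5.43 and 4.99, differed in sign between pairs, and the mean over probe sets (0.45) did not pass.

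Dhcr7 encodes the reductase that ends one route to cholesterol, and had log2 signals of 8.87 (Nanog), 7.87 (Esrrb), 7.95 (2i) and 7.77 (empty vector) with Dox, against 7.55 (Nanog), 7.34 (Esrrb), 7.31 (2i) and 6.93 (empty vector) without Dox. It stood highest in Nanog cells with Dox, the only ratio of the set over 2-fold in that pair. The log2 response by limma was 0.83 (SE 0.15, 1.78-fold, adjusted p = 0.0387), and 0.67 without the Nanog pair. Without the block the adjusted p was 0.0808.

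**Figure D2:**
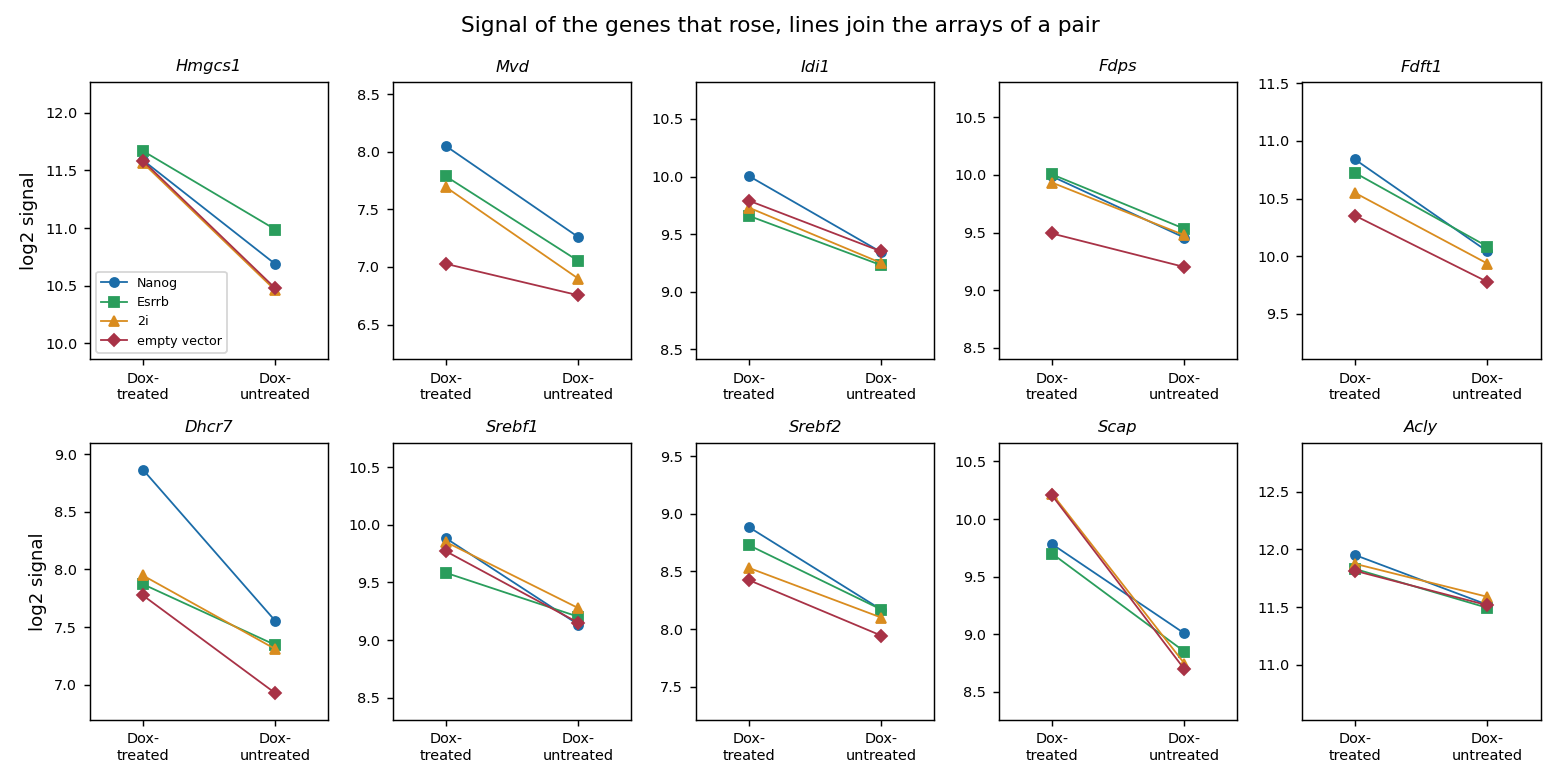
Log2 signal (vertical axis) of the 10 genes that rose, 1 panel per gene with the same span of the axis, Dox-treated at the left and Dox-untreated at the right. Each line joins the 2 arrays of a background, and every line slopes down toward the untreated array.

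The other sterol genes gave no call, and several went opposite ways in different backgrounds. Tm7sf2, a sterol reductase, had log2 signals of 7.67 (Nanog), 7.26 (Esrrb), 7.22 (2i) and 6.54 (empty vector) with Dox, against 6.85 (Nanog), 6.28 (Esrrb), 7.49 (2i) and 7.17 (empty vector) without Dox. It was higher with Dox under forced Nanog and forced Esrrb and lower in the other two pairs, and the untreated Esrrb array was the lowest of the 8. Its log2 response under Nanog and Esrrb exceeded that in the other two pairs by 1.35 (SE 0.22, adjusted p = 0.0701) in limma's test of the difference, the lowest adjusted p of the 31. Cyp51, which removes a methyl group from lanosterol, showed the same signs at smaller size, with log2 signals of 8.55 (Nanog), 8.34 (Esrrb), 8.21 (2i) and 7.94 (empty vector) with Dox, against 8.18 (Nanog), 8.02 (Esrrb), 8.46 (2i) and 8.18 (empty vector) without Dox. Its difference was 0.59 (SE 0.16, adjusted p = 0.166) by limma. The sign under Nanog and Esrrb rests on its brightest probe set, since the others gave 0.03 and -0.51 (Nanog) and -0.11 and -0.39 (Esrrb). In the set, 3 genes (Tm7sf2, Cyp51 and Acaca) were higher with Dox in both the Nanog and Esrrb pairs and lower in both others, as were 5.66% of all genes, and 1 (Insig2) was split the other way, as were 5.41%.

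Ebp, the isomerase of late sterols, had log2 signals of 10.75 (Nanog), 9.94 (Esrrb), 10.18 (2i) and 9.44 (empty vector) with Dox, against 10.19 (Nanog), 10.26 (Esrrb), 10.25 (2i) and 10.18 (empty vector) without Dox. The untreated arrays lay between 10.18 and 10.26, while the treated ones spread on both sides of them. Hsd17b7 and Sqle, the squalene epoxidase, were higher with Dox mainly in the 2i pair. Hsd17b7 had log2 ratios of -0.02 (Nanog), -0.01 (Esrrb), 0.79 (2i) and -0.15 (empty vector). Sqle had log2 ratios of 0.21 (Nanog), -0.20 (Esrrb), 0.61 (2i) and -0.18 (empty vector). Msmo1, which with Nsdhl and Hsd17b7 removes methyl groups from sterols, was higher with Dox in each pair and missed the threshold, with a log2 response of 0.34 (SE 0.10, 1.27-fold, adjusted p = 0.0861) by limma. Nsdhl, Sc5d and Lss, the lanosterol synthase, had log2 ratios between -0.15 and 0.48. For Lss and Sc5d 1 other probe set of each was lower with Dox in every pair, reaching -1.09 (Lss, 2i pair) and -0.86 (Sc5d, empty vector pair).

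Of the control genes, Scap had the largest response of the set. Its log2 signals were 9.78 (Nanog), 9.70 (Esrrb), 10.22 (2i) and 10.21 (empty vector) with Dox, against 9.01 (Nanog), 8.85 (Esrrb), 8.75 (2i) and 8.70 (empty vector) without Dox. The untreated arrays were alike, and the treated 2i and empty vector arrays stood above the treated Nanog and Esrrb arrays. The common log2 response by limma was 1.15 (SE 0.16, 2.22-fold, adjusted p = 0.0251). The difference between the 2 sets of pairs was -0.68 (SE 0.14, adjusted p = 0.103), which did not pass. Its second, dimmer probe set was higher with Dox in each pair too, by 0.38 to 0.60.

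Srebf1 had log2 signals of 9.88 (Nanog), 9.58 (Esrrb), 9.85 (2i) and 9.77 (empty vector) with Dox, against 9.13 (Nanog), 9.20 (Esrrb), 9.28 (2i) and 9.15 (empty vector) without Dox. Its untreated arrays lay between 9.13 and 9.28, below every treated one. The log2 response by limma was 0.58 (SE 0.09, 1.5-fold, adjusted p = 0.0309). Its isoforms were not told apart here. Srebf2 had log2 signals of 8.88 (Nanog), 8.73 (Esrrb), 8.53 (2i) and 8.42 (empty vector) with Dox, against 8.17 (Nanog), 8.17 (Esrrb), 8.10 (2i) and 7.94 (empty vector) without Dox. The groups did not overlap, and the log2 response by limma was 0.55 (SE 0.10, 1.46-fold, adjusted p = 0.0368). Its second probe set gave 0.08 (Esrrb) and -0.02 (empty vector), and the mean of both (0.40) did not pass.

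Insig1, itself a well-known SREBP target, gave no call. Its log2 signals were 9.28 (Nanog), 8.53 (Esrrb), 8.67 (2i) and 7.93 (empty vector) with Dox, against 8.66 (Nanog), 8.28 (Esrrb), 8.21 (2i) and 8.49 (empty vector) without Dox. It was higher with Dox in 3 pairs and lower in the empty vector pair, and limma's common log2 response was 0.19 (SE 0.20, adjusted p = 0.588). Insig2 had log2 ratios of -0.12 (Nanog), -0.44 (Esrrb), 0.17 (2i) and 0.04 (empty vector), opposite in sign to those of Tm7sf2 and Cyp51. The sign in the 2i pair rests on its brightest probe set, since the others, at mean log2 signals of 8.16 and 8.44, gave -0.08 and -0.005 there. Stard4, a cholesterol carrier, had log2 ratios of 0.32 (Nanog), 0.09 (Esrrb), 0.33 (2i) and 0.01 (empty vector). Its other probe sets gave 0.61 and 0.20 (Nanog), 0.32 and 0.12 (Esrrb), 0.73 and 0.25 (2i), and 0.58 and -0.13 (empty vector).

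Acly, which makes the cytosolic acetyl-CoA that both branches use, was the 1 fatty acid gene that rose. Its log2 signals were 11.95 (Nanog), 11.83 (Esrrb), 11.88 (2i) and 11.81 (empty vector) with Dox, against 11.52 (Nanog), 11.49 (Esrrb), 11.59 (2i) and 11.52 (empty vector) without Dox. The shift was small and alike in the 4 pairs, and the log2 response by limma was 0.34 (SE 0.06, 1.26-fold, adjusted p = 0.0359). The call was lost with the mean of its 6 probe sets (0.20, adjusted p = 0.183) and without limma's trend (adjusted p = 0.0622), and 2 of the 6 have mean log2 signals of only 2.29 and 2.33.

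Acaca, the acetyl-CoA carboxylase, had log2 signals of 8.74 (Nanog), 8.72 (Esrrb), 8.39 (2i) and 8.03 (empty vector) with Dox, against 8.49 (Nanog), 8.52 (Esrrb), 8.67 (2i) and 8.68 (empty vector) without Dox. The signs split by background as for Tm7sf2, with a difference of 0.69 (SE 0.19, adjusted p = 0.166) by limma. Its other probe set, at a mean log2 signal of only 3.75 against 8.53, gave log2 ratios of -0.18 (Nanog), -0.04 (Esrrb), -0.10 (2i) and -0.11 (empty vector). Fasn, the fatty acid synthase, had log2 ratios of 0.63 (Nanog), 0.21 (Esrrb), 0.41 (2i) and 0.04 (empty vector), all above 0, and a common log2 response of 0.32 (SE 0.12, 1.25-fold, adjusted p = 0.144). Elovl6, which elongates palmitate, had log2 ratios of 0.35 (Nanog), 0.22 (Esrrb), 0.26 (2i) and -0.38 (empty vector). In the empty vector pair its other probe sets gave -0.32 (mean log2 signal 9.73) and 0.45 (mean log2 signal 5.21).

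The desaturases held the largest single change of the set. Scd1, the stearoyl-CoA desaturase that makes oleate, had log2 signals of 10.32 (Nanog), 9.85 (Esrrb), 10.24 (2i) and 8.10 (empty vector) with Dox, against 10.09 (Nanog), 9.91 (Esrrb), 10.40 (2i) and 10.11 (empty vector) without Dox. A single array stood apart, the treated empty vector one, while the other 7 lay between 9.85 and 10.40. Its second probe set gave log2 ratios of 0.35 (Nanog), -0.36 (Esrrb), -0.21 (2i) and -1.24 (empty vector). Scd2, a close relative, had log2 signals of 12.26 (Nanog), 11.93 (Esrrb), 11.80 (2i) and 11.00 (empty vector) with Dox, against 11.48 (Nanog), 11.61 (Esrrb), 11.78 (2i) and 11.72 (empty vector) without Dox. Here the treated Nanog array was the highest of the 8 and the treated empty vector array the lowest. Its other probe sets, at mean log2 signals of 7.79 and 5.12, gave log2 ratios of 0.64 and 0.70 (Nanog) and 0.002 and -0.25 (Esrrb). They gave -0.25 and -0.40 (2i), and -0.75 and -1.05 (empty vector). Fads1, a desaturase of polyunsaturated fatty acids, had log2 signals of 8.79 (Nanog), 8.59 (Esrrb), 8.51 (2i) and 7.68 (empty vector) with Dox, against 8.55 (Nanog), 8.61 (Esrrb), 8.72 (2i) and 8.29 (empty vector) without Dox, again lowest on the treated empty vector array. The other Fads1 probe set, at a mean log2 signal of 5.63, gave log2 ratios of 0.88 (Nanog), 0.08 (Esrrb), 0.06 (2i) and -0.08 (empty vector). Fads2, the partner of Fads1, had log2 ratios of 0.74 (Nanog), 0.31 (Esrrb), 0.30 (2i) and 0.04 (empty vector), all above 0. The difference between the 2 sets of pairs by limma was 1.18 (SE 0.57, adjusted p = 0.405) for Scd1, 0.90 (SE 0.28, adjusted p = 0.21) for Scd2 and 0.52 (SE 0.21, adjusted p = 0.314) for Fads1. Probes shared between Scd1 and Scd2 were not examined.

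**Figure D3:**
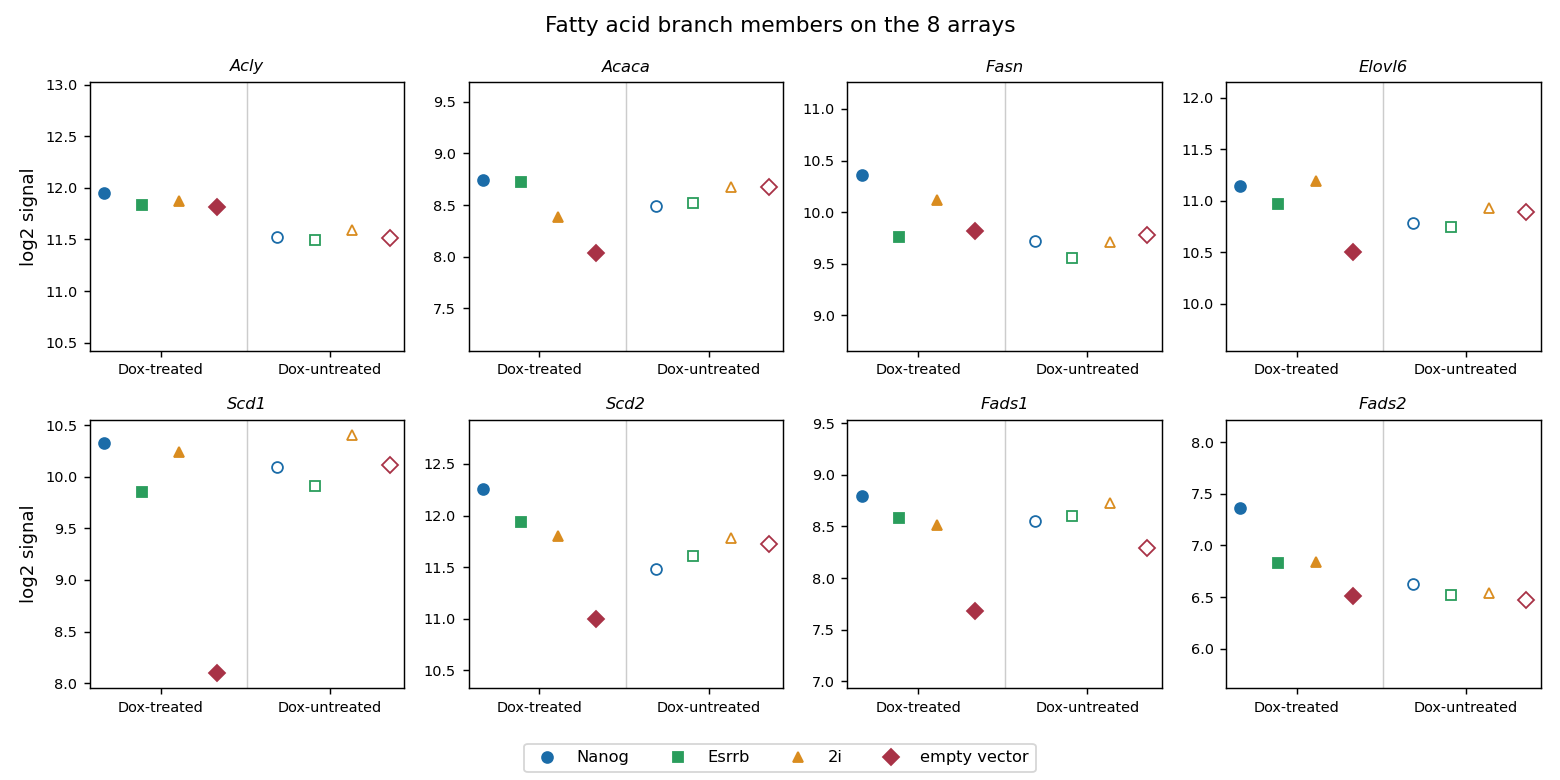
Log2 signal (vertical axis, same span in each panel) of the 8 fatty acid genes on the 8 arrays, filled symbols Dox-treated at the left and open symbols Dox-untreated at the right. For Scd1 the filled diamond of the empty vector stands at 8.10 and the other 7 symbols between 9.85 and 10.40.

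In each pair the cholesterol branch had the higher median log2 ratio, a result that depended on the choice of probe sets. Under forced Nanog it was 0.53 for cholesterol and 0.39 for fatty acid genes, where the median of all genes was -0.01. In the Esrrb pair the medians were 0.32 for cholesterol and 0.21 for fatty acid genes, with 0.00 for all genes. In the 2i pair they were 0.37 for cholesterol and 0.14 for fatty acid genes, with 0.03 for all genes. The branches lay farthest apart in the empty vector pair, at -0.02 for cholesterol and -0.50 for fatty acid genes, with -0.03 for all genes. The gap was 0.14 (Nanog), 0.11 (Esrrb), 0.23 (2i) and 0.48 (empty vector). Genes of a branch are no replicates, so the gap has no test, and with the mean of each gene's probe sets it was -0.16 (Nanog), 0.01 (Esrrb), 0.24 (2i) and 0.20 (empty vector). That mean weighs dim probe sets, such as those of Acly (mean log2 signal 2.29) and Fdps (2.35), like bright ones. Within the fatty acid branch, the 4 desaturases had medians of 0.49 (Nanog), 0.15 (Esrrb), -0.07 (2i) and -0.67 (empty vector), and the 4 genes of synthesis and elongation 0.39 (Nanog), 0.21 (Esrrb), 0.27 (2i) and -0.17 (empty vector). The 11 sterol genes had medians of 0.48 (Nanog), 0.14 (Esrrb), 0.19 (2i) and -0.15 (empty vector), below the mevalonate genes in each pair.

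**Figure D4:**
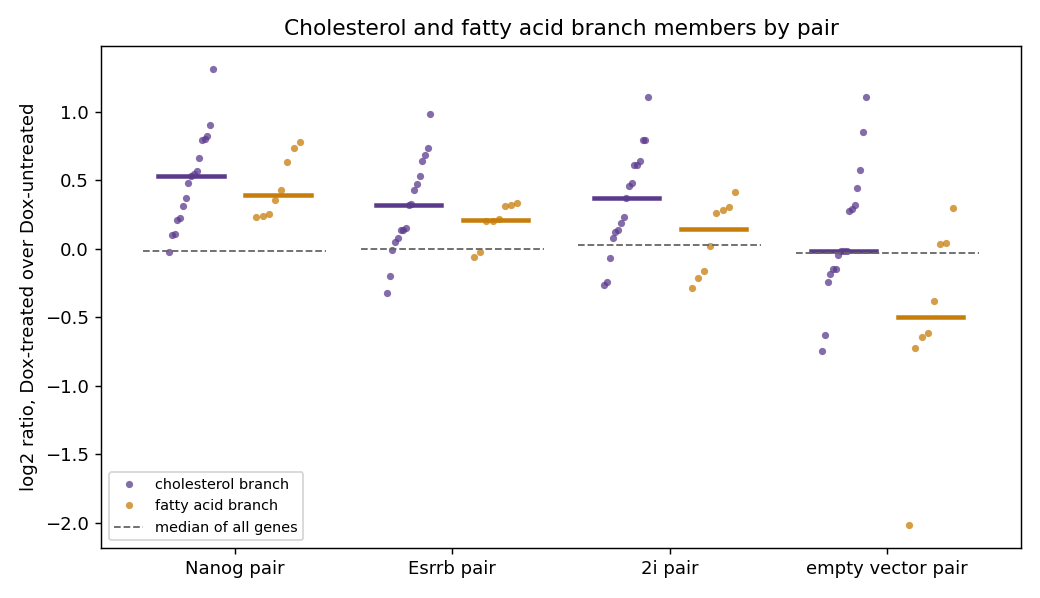
Log2 ratio of the signal with Dox over that without Dox (vertical axis) of the 17 cholesterol and 8 fatty acid genes in each pair. A point is a gene, a bar the branch median and a dashed line the median of all genes. The branch medians are closest in the Esrrb pair, at 0.32 and 0.21, and farthest apart in the empty vector pair, at -0.02 and -0.50.

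Seen by pair, 29 of the 31 genes were higher with Dox under forced Nanog, 25 under forced Esrrb, 25 in the 2i condition and 15 with the empty vector, where 48%, 50.4%, 53.5% and 45.7% of all genes were higher in those pairs. In 14 of the 31 the signal was higher in all 4 pairs, as in 18.4% of all genes, and in 0 it was lower in all 4, as in 19.1% of all genes. The log2 ratio was highest in the Nanog pair for 21 of the 31 (19.3% of all genes) and lowest in the empty vector pair for 20 (29.6% of all genes). For 13 genes, 5 of them in the fatty acid branch, the treated empty vector array held the lowest of the 8 signals (20.8% of all genes), and for 0 the highest. Changes over 2-fold were few. They were Dhcr7 in the Nanog pair (1.13% of all genes over 2-fold higher, 1.17% lower), none in the Esrrb pair (1.06% higher, 0.967% lower), Hmgcs1 and Scap in the 2i pair (4.81% higher, 3.1% lower), and Hmgcs1 and Scap (5.36% higher) with Scd1 the other way (3.85% lower) in the empty vector pair.

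Forced Nanog and Esrrb together were set against the other two backgrounds, as a difference of log2 response, in a limma fit with 2 residual degrees of freedom. Of the 31 genes 0 passed, and 7 had an unadjusted p under 0.05, as did 2874 of 18194 genes, of which 0 passed as higher and 15 (0.0824%) as lower. The 7 were Tm7sf2, Cyp51, Acaca, Scd2 and Fads1 on the higher side and Scap and Hmgcs1 on the lower. The counts moved with single pairs. Without the 2i pair 7 genes passed as higher (Tm7sf2, Insig1, Acaca, Elovl6, Scd1, Scd2 and Fads1) and Scap as lower, among 1081 higher and 1141 lower genes in all. Without the empty vector pair Tm7sf2 passed as higher, and Scap and Hsd17b7 as lower, among 1002 higher and 1087 lower genes. In these fits 1 pair stood alone on its side and was assumed to vary like the others. Without the Nanog or the Esrrb pair 0 of the 31 passed.

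The arrays without Dox were set against each other as well. Against the empty vector array, 0 of the 31 genes differed by over 2-fold on the Nanog, Esrrb or 2i array, where 0.687% (Nanog), 1.82% (Esrrb) and 0.758% (2i) of all genes did, so that few or no such genes would be found in a set of this size. The median log2 difference was 0.13 (Nanog), 0.07 (Esrrb) and 0.07 (2i). The cholesterol genes had medians of 0.21 (Nanog), 0.29 (Esrrb) and 0.13 (2i), and the fatty acid genes -0.04 (Nanog), -0.12 (Esrrb) and 0.07 (2i). The extremes were on the Esrrb array, with Pmvk at 0.91 and Tm7sf2 at -0.89. These differences share the empty vector array and have no test.

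Lipid genes outside the set gave no call in limma's common fit: 0 of 3 further sterol and isoprenoid enzymes, 0 of 5 genes of SREBP and LXR control, 0 of 7 of sterol uptake, efflux and storage, and 0 of 16 of other fatty acid and glycerolipid synthesis. At an unadjusted p under 0.05 these lists held 0, 0, 1 and 4 higher and 0, 0, 0 and 4 lower genes. Of all 18194 genes 3.69% rose and 3.39% fell, and 2434 were higher and 2549 lower at that unadjusted p, so the 0 calls are near the background for lists of this size. The medians of their common log2 responses were -0.11, 0.04, -0.07 and -0.14 in that order of lists, and -0.00 over all genes. Mbtps1 and Mbtps2, the proteases that cleave SREBP precursors, had log2 ratios of -0.06 to 0.36 (Mbtps1) and -0.30 to 0.13 (Mbtps2), and Lbr, a sterol reductase like Tm7sf2, -0.45 to 0.09. Lpin1, a phosphatidate phosphatase, had the largest values, with log2 signals of 8.68 (Nanog), 8.39 (Esrrb), 9.69 (2i) and 9.52 (empty vector) with Dox, against 7.97 (Nanog), 8.04 (Esrrb), 7.55 (2i) and 7.84 (empty vector) without Dox. Its groups did not overlap, and its common log2 response by limma was 1.22 (SE 0.31, adjusted p = 0.0663). Dgat2, which makes triglycerides, was over 2-fold lower with Dox in 3 pairs, with log2 ratios of -1.16 (Nanog), -1.71 (Esrrb), 0.48 (2i) and -1.07 (empty vector). The elongase Elovl7 had log2 ratios of -0.88 (Nanog), -0.47 (Esrrb), -0.33 (2i) and -1.77 (empty vector), and Elovl1 0.48 (Nanog), 0.23 (Esrrb), 0.31 (2i) and 1.01 (empty vector). Neither passed (limma, adjusted p = 0.0845 for Elovl7 and 0.0947 for Elovl1). Mlxipl, a carbohydrate-responsive activator of lipid synthesis, had log2 ratios of 0.67 (Nanog), 0.23 (Esrrb), 1.14 (2i) and -0.66 (empty vector), and Abcg1, a sterol exporter, 0.50 (Nanog), 0.83 (Esrrb), 0.20 (2i) and 0.08 (empty vector). Npc2, which moves cholesterol out of lysosomes, had 0.10 (Nanog), -0.36 (Esrrb), 0.07 (2i) and -1.03 (empty vector).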

How the data were processed

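The authors hybridized cRNA to Affymetrix mouse expression arrays, of which those of 8 conditions are used here, and summarized them by RMA (affy in R, versions not stated). The deposited values are background-subtracted, quantile-normalized signals on a log scale, read here as log2 from their range of 1.82 to 14.6 since the base is not stated. Quantile normalization hides a shift of all genes in 1 direction. No other normalization was added. Array medians were 5.31 to 5.36, and 0 value columns belonged to no sample used. The pair with constitutively active Stat3 was not analysed here.

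Of 45101 probe sets, 34958 had 1 symbol in the platform annotation, 932 had several and were not used, and 9211 are unnamed here. 34754 matched RefSeq by Entrez ID. Of the 31 genes 22 had several probe sets (72 for all 31), which differed in sign within a pair for 7 (Nanog), 8 (Esrrb), 7 (2i) and 5 (empty vector) genes, and 3 genes took a probe set ending in _x_at, which may bind related transcripts. A log2 ratio is Dox-treated minus Dox-untreated, and over 2-fold means beyond 1 or -1.

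limma 3.58.1 in R 4.3.3 (lmFit, eBayes with a trend) fitted a Dox response shared by the 4 backgrounds, which serve as replicates and enter as a block, and in another fit the difference of the response between pairs. p-values were adjusted by Benjamini-Hochberg over 18194 genes, and the fits were tested on simulated data. Those data had independent noise and the same response in every pair it was added to. They do not bear on the use of unlike backgrounds as replicates. For arrays, their number limits the precision. Named genes are all listed members, Gnl3 and up to 4 genes of each other list with the largest absolute mean ratio. The members and lists were chosen with earlier results of these data known. Promoters came from RefSeq. Alternatives tried were averaged probe sets, no _x_at probe sets, a filter on dim probe sets, centring, another quantile normalization, other limma settings, other thresholds and branch definitions, and leaving out each pair.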

Additional observations from a re-analysis of the deposited data

Results flagged for a closer look

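For 4 genes, on the probe set taken for each, every Nanog and Esrrb pair moved one way and every empty vector and 2i pair the other. The difference of the log2 response, Nanog and Esrrb pairs minus empty vector and 2i pairs, was 1.35 for Tm7sf2, 0.59 for Cyp51, 0.69 for Acaca and -0.38 for Insig2. limma's test of the difference did not pass for any of them (adjusted p = 0.0701 for Tm7sf2, 0.166 for Cyp51, 0.166 for Acaca and 0.378 for Insig2). Of all genes, 5.66% were split with the Nanog and Esrrb pairs higher and 5.41% with them lower.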

How the results depend on the processing

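The 10 risen genes were the same 10 without _x_at probe sets, with the filter on dim probe sets, with each array centred and with quantile normalization anew, 9 without limma's trend (Acly lost) and 7 without the background block (Mvd, Fdps and Dhcr7 lost). With averaged probe sets 6 rose (Fdps, Fdft1, Srebf2 and Acly lost), among 407 genes in place of 671. With each pair left out in turn 0 to 0 of the 31 rose, among 1 to 26 genes higher and 2 to 14 lower. The coefficients of the 10 stayed above 0 in every one of these fits. That sign had to hold with a pair left out, without the trend or without the block, since all 10 were higher in every pair. For the difference between pairs, the genes called lower numbered 1 with the mean of probe sets, 0 with the dim filter, 57 with centring and 1 without a trend, and those called higher 20 with centring. With each pair left out they ran from 0 to 1081 higher and 0 to 1141 lower, of the 31 genes 0 to 7 higher and 0 to 2 lower. The gap between branches moved to -0.164 (Nanog), 0.00981 (Esrrb) and 0.202 (empty vector) with the mean of probe sets. It stayed above 0 under the other alternatives, and with the 2i pair set against the untreated empty vector array, a choice made after seeing the data, it was 0.117. Over 1.5-fold the genes of the 31 higher with Dox were 13 (Nanog), 5 (Esrrb), 7 (2i) and 4 (empty vector), with 6 lower (empty vector). Over 3-fold the genes higher were 0 (Nanog), 0 (2i) and 0 (empty vector). Scd1, at a log2 ratio of -2.01 for the empty vector, also stayed beyond the 3-fold threshold on its lower side. Shares of all genes at 1.5-fold and 3-fold are not given here, so whether these counts are unusual cannot be read from them. With the mean of probe sets 0 (2i) and 1 (empty vector) were over 2-fold higher, and with quantile normalization anew 1 (Esrrb). The labels give no replicate numbers, and the pairing by background is the block of the main fit. No array has a replicate, and the causes of these changes were not tested.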
